A study of Mus musculus with 12 samples.

Results

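β-Catenin binding and H3K27 acetylation were read around 10 genes that control how much β-catenin a cell keeps: *Ctnnb1*, which encodes β-catenin itself, *Apc* and *Axin1*, *Gsk3a*, *Gsk3b* and *Csnk1a1*, *Btrc*, and *Dvl1*, *Dvl2* and *Dvl3*. They are 10 of 21938 protein-coding genes on chromosomes 1 to 19, X and Y in GENCODE M21 (mouse build mm10, GRCm38). A ChIP-seq summit was assigned to a gene when it lay within 100 kb of the gene body, so that the 10 loci cover 2.60 Mb. In the 4 consensus lists these loci hold 24 of 16238 β-catenin summits from wild-type controls, 0 of 224 from C59-treated embryos, 138 of 31466 H3K27ac summits from wild-type controls and 137 of 30166 after C59. Forelimb buds came from wild-type Swiss Albino embryos 6 h after injection at E10.5 with DMSO, the solvent, used as wild-type control, or with C59, an inhibitor of porcupine, the enzyme needed for WNT secretion. The libraries are pools of forelimb buds, not single embryos. There are 2 biological replicates for each combination of antibody and treatment, each with its own peak list, and a consensus list that the authors called on both replicates together and kept to summits with a peak in each. No allele or transgene differs between the groups. A summit within 100 kb of a gene is not shown to act on that gene, since 2 to 16 protein-coding genes lie in or reach into each window.

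In the absence of WNT ligands, β-catenin is captured in the cytoplasm by a destruction complex, phosphorylated and passed on for ubiquitination and degradation. WNT ligands recruit Dishevelled proteins to the receptors, the complex is inactivated, and β-catenin enters the nucleus to act with TCF/LEF factors at their target genes. In the early limb bud, WNT signals from the ectoderm act on the underlying mesenchyme through this pathway. H3K27ac marks active promoters and enhancers.

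In all 4 replicate lists, H3K27ac summits were found at the promoter, taken as less than 1 kb from any annotated transcription start (TSS), for 8 of 8 markers of limb mesenchyme and for *Tbx5*, which marks forelimbs, and for 0 of 4 blood, 0 of 4 neural, 0 of 2 heart and 0 of 2 liver markers. Of the hindlimb markers, *Pitx1* was unlisted and *Tbx4* was listed in all 4. The fold of *Tbx4* (3.25 to 4.63) was above that of *Tbx5* (2.18 to 2.60) in each list. Of 3 markers of muscle precursors, *Met* (4.79 to 5.68-fold) and *Lbx1* (2.64 to 4.15-fold) were listed in all 4 lists and *Pax3* in 1 list of each treatment. For ectoderm, 1 of 9 markers (*Epcam*) was listed in all 4 lists. Of 4 endothelial markers, *Pecam1* was listed in both C59 lists (4.83 and 4.73-fold) and in neither wild-type list, and *Cdh5* in both C59 lists and 1 wild-type list; their part in the results was not tested. The coverage expected at background was 1.57 and 1.81 fragments per base in the wild-type and 1.83 and 1.82 in the C59-treated β-catenin libraries, and 2.69 to 3.17 in the 4 H3K27ac libraries.

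β-Catenin summits were listed around all 10 genes in both wild-type replicates and around none after C59. The wild-type lists held 42 and 44 summits in the 10 loci, a mean of 43.0 ± 1.41 (SD, n = 2), and both C59 lists held 0. The groups do not overlap, and the exact permutation test (two-sided) gave p = 0.33, the smallest value that 2 against 2 libraries allow. The same separation, with more summits in both wild-type lists than in either C59 list, held for 10 of 10 members and for 65.0% of all protein-coding genes. A wild-type consensus summit was listed within 100 kb of 7 of 10 members (58.8% of all genes), and none of these 7 had a C59 consensus summit as well (57.9% of all genes with the former alone). A C59 consensus summit lay within 100 kb of 0 of 10 members (0.898% of all genes), and a summit of either C59 replicate within 100 kb of 0 of 10 (2.20% of all genes). Of the 24 wild-type consensus summits, 0 lay inside a C59 β-catenin consensus peak (1.12% of all). In bulk tissue, fewer cells with bound β-catenin and less binding per cell cannot be told apart. The 3 genes without a wild-type consensus summit are *Ctnnb1*, *Dvl1* and *Dvl3*.

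**Figure D1:**
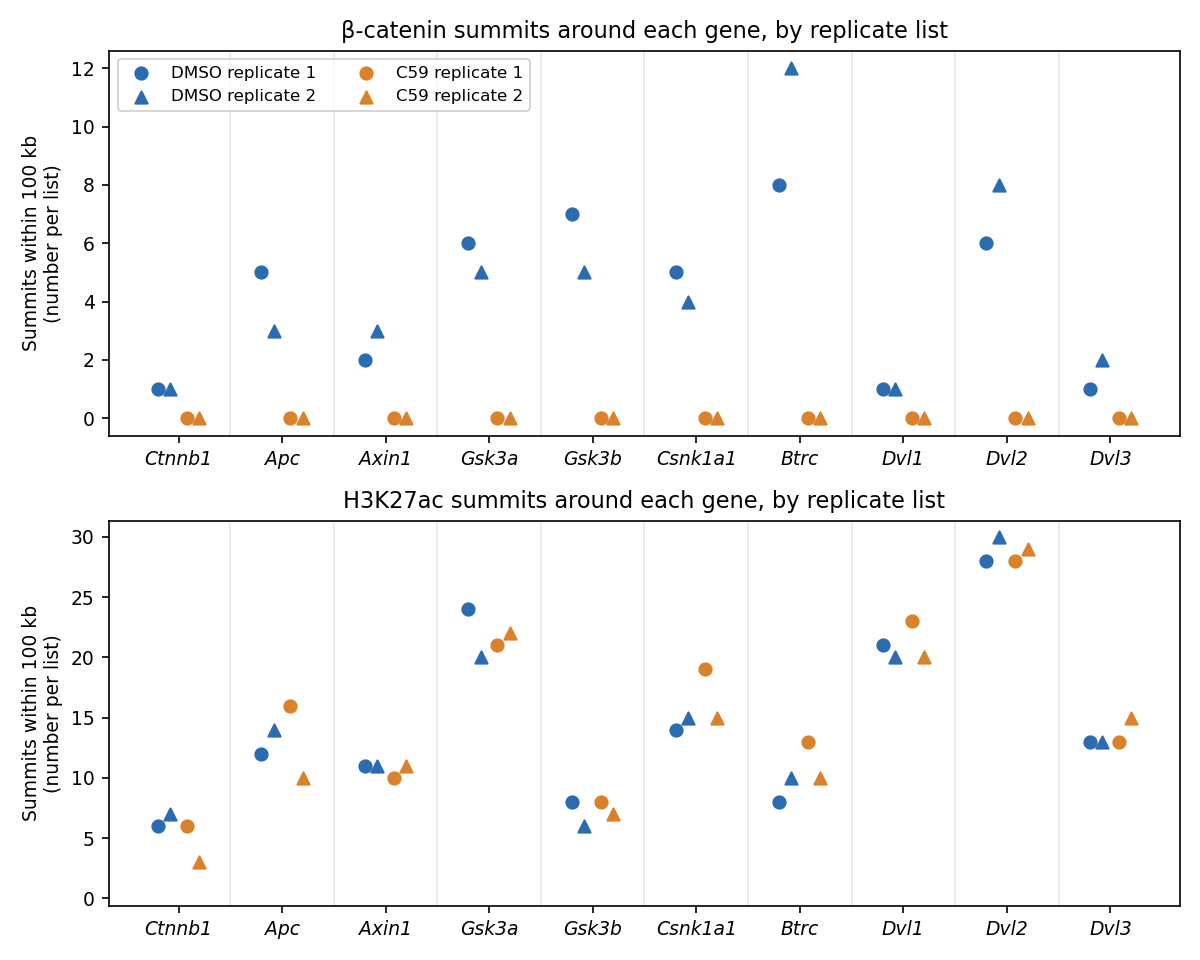
Number of β-catenin (upper) and H3K27ac (lower) summits within 100 kb of each gene in each replicate list, with wild-type controls (DMSO) in blue and C59 in orange. β-Catenin counts run from 1 to 12 in wild-type controls and are 0 in both C59 lists for every gene, whereas the H3K27ac counts of the treatments overlap or meet at every gene.

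The C59 lists were also harder to enter on the scale of p, although all 4 replicate lists ended at a like q. The lowest −log10 q was 1.31 and 1.38 after C59 and 1.30 and 1.30 in wild-type controls. A position with background coverage needed 11 fragments in both C59 libraries and 8 in both wild-type libraries to be listed, and the least significant summit had a −log10 p of 5.69 and 5.72 after C59 against 3.89 and 3.79 in wild-type controls. Of the summits in the 10 loci, 25 of 42 (59.5%) in wild-type replicate 1 and 31 of 44 (70.5%) in replicate 2 lay past the stricter C59 limit, against 85.4% and 79.4% of all summits of these lists. Applying that limit to the wild-type lists left a mean of 28.0 summits against 0. In each wild-type replicate, 9 of 10 members kept at least 1 summit. In the consensus lists the least significant summit had a −log10 p of 8.92 after C59 and 3.69 in wild-type controls. Past that C59 consensus limit lay 19 of the 24 wild-type consensus summits (79.2%), against 91.7% of all, and 7 members kept at least 1. A summit that is missing from a list is not shown to be unbound.

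**Figure D2:**
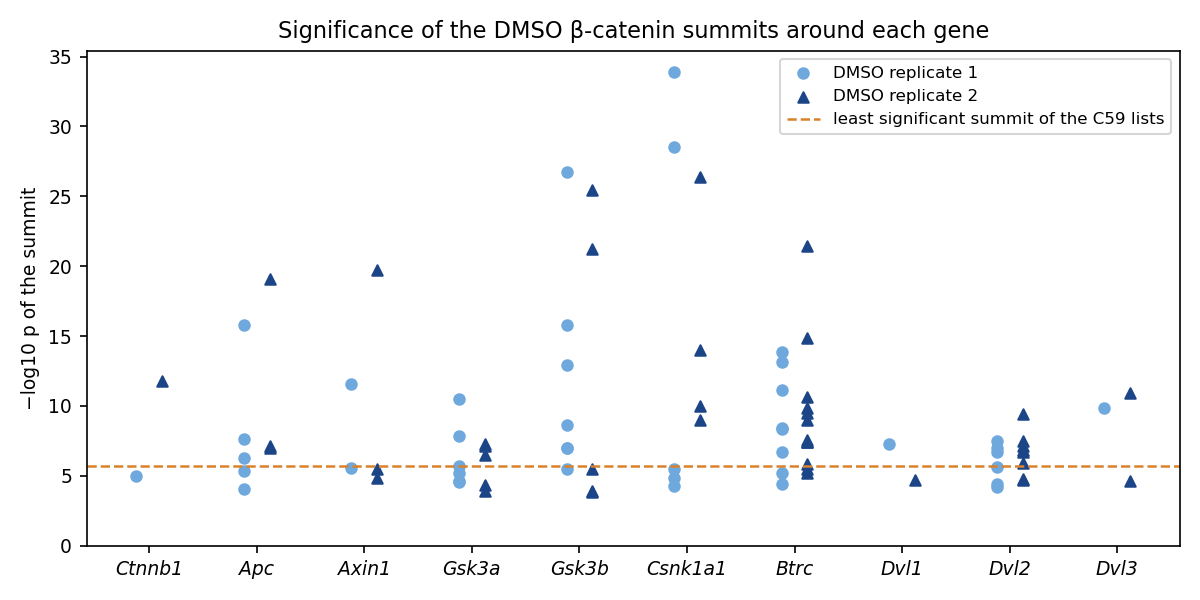
Significance (−log10 p from the authors' peak caller) of every wild-type β-catenin summit within 100 kb of each gene, by replicate, with the limit of the C59 lists as a dashed line. Above the line lie 25 of 42 summits of replicate 1 and 31 of 44 of replicate 2, and the *Ctnnb1* summit of replicate 1 lies below it.

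The TCF/LEF core was searched as ATCAAAG or TTCAAAG and their reverse complements CTTTGAT and CTTTGAA, on both strands, in 200 bp centred on each consensus summit. It was found in 7 of 24 windows (29.2%, 95% Wilson interval 14.9 to 49.2%), against 28.6% of all wild-type consensus windows. The windows around the most enriched wild-type consensus summit of *Axin1*, *Gsk3a*, *Gsk3b*, *Btrc* and *Dvl2* are printed from the GRCm38 reference, plus strand, with cores in capitals, so that sites with and without a core can be compared. Of these 5 windows, that of *Gsk3b* holds 2 cores, that of *Dvl2* holds 1, and those of *Axin1*, *Btrc* and *Gsk3a* hold none.
Axin1, Rab11fip3 intron, chr17:26054531-26054730: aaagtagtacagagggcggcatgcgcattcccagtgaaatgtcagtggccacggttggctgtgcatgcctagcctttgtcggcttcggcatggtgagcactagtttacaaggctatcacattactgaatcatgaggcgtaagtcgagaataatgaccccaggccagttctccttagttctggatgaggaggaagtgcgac
Gsk3a, Erf intron, chr7:25249398-25249597: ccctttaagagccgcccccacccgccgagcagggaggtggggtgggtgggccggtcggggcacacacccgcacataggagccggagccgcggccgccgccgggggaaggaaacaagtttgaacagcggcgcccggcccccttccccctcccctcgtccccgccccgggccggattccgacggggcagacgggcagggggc
Gsk3b, Maats1 intron, chr16:38334510-38334709: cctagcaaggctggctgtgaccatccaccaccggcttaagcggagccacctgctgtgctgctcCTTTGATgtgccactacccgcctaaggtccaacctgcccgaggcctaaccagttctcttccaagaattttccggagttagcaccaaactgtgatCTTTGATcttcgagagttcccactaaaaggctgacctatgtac
Btrc, intergenic, chr19:45541754-45541953: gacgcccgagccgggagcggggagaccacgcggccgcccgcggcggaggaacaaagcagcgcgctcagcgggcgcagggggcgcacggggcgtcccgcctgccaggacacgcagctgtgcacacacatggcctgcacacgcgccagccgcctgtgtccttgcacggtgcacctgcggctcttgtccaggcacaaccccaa
Dvl2, intergenic, chr11:70068392-70068591: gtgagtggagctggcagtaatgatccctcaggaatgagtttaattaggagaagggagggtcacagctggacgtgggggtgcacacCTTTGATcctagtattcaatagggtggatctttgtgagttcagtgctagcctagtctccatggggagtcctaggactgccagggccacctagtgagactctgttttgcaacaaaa

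The *Gsk3a* and *Btrc* windows are GC-rich (76.0 and 73.5% G or C, with 22 and 24 CpG dinucleotides), and the *Axin1*, *Gsk3b* and *Dvl2* windows have 51.5, 53.5 and 50.5% G or C. The median was 51.2% over the 24 windows and 45.5% over all wild-type consensus windows. In the *Dvl2* window, 81 of the 200 bases, the core among them, are soft-masked as repeats in the reference, as are 94 bases and 1 of the 2 cores in the *Gsk3b* window. Cores were also found at 2 less enriched summits in the *Btrc* locus, chosen after their values were seen and printed with 12 bases on either side because they carry the other letter form, TTCAAAG.
Btrc, intergenic, chr19:45270881-45270911: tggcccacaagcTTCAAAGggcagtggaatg
Btrc, Fbxw4 intron, chr19:45585115-45585145: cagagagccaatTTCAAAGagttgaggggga

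Most of the bound sites around these genes are distal and nearer to another gene. Of the 24 consensus summits, 13 are intergenic, 9 intronic and 2 exonic, 2 lie in the body of the member, and for 5 the member has the nearest protein-coding TSS. Less than 1 kb from any annotated TSS lay 4 of 24 (16.3% of all wild-type consensus summits). The summits had a median fold enrichment over expected coverage of 5.57 (3.28 to 11.7), against 6.76 over all consensus summits. Their density was 9.24 per Mb, against 5.94 per Mb over the whole genome, which unlike the loci is not limited to sequence around genes. Members had a median of 2.5 consensus summits within 100 kb, and all protein-coding genes a median of 1.0. These counts were not adjusted for window length.

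**Figure D3:**
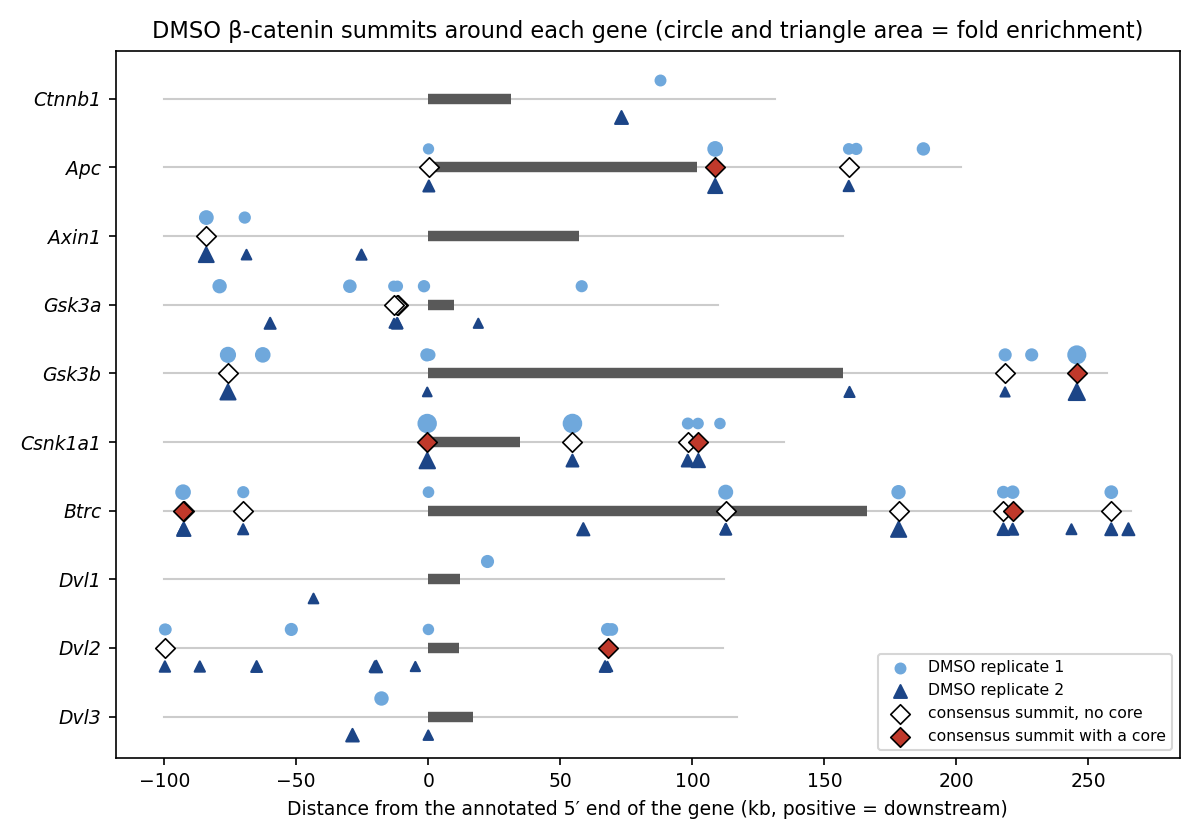
Wild-type β-catenin summits around each gene, as distance in kb from the annotated 5′ end in the direction of transcription, with the gene body as a thick bar. Circles (replicate 1) and triangles (replicate 2) scale with fold enrichment, and diamonds are the 24 consensus summits, red for the 7 with a TCF/LEF core; *Ctnnb1*, *Dvl1* and *Dvl3* have no diamond.

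*Ctnnb1* (ENSMUSG00000006932, chr9:120929216-120960507) encodes β-catenin, which also links cadherins to the actin cytoskeleton. No β-catenin summit was listed at its promoter in any list. Wild-type replicate 1 listed 1 summit in its locus, at chr9:121017021 (3.73-fold, 9 fragments), and replicate 2 listed 1 at chr9:121002052 (6.32-fold, 17 fragments). Both lie in introns of the neighbouring *Ulk4*, 56.5 and 41.5 kb past the end of *Ctnnb1*, and neither is inside a consensus peak. The nearest consensus summit fell outside the window, 119.6 kb from the gene (6.88-fold), and the nearest one after C59 was 2502 kb away.

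*Apc* and *Axin1* encode the scaffold proteins that hold β-catenin and its kinases together. *Apc* (ENSMUSG00000005871, chr18:34220924-34322552) had 3 consensus summits, 1 of them at its own promoter. That summit lies in the coding part of an exon at chr18:34221150, 102 bp from a TSS, and was of low enrichment, 3.26-fold with 8 fragments in replicate 1 and 4.62-fold with 12 in replicate 2. The most enriched *Apc* summit is at chr18:34329598, 7.05 kb past the 3′ end and 1249 bp from the TSS of *Srp19*, a signal recognition particle gene. It had 7.14-fold enrichment with 23 fragments in replicate 1 and 7.60-fold with 28 in replicate 2, and a core, also soft-masked, centred 27 bp from the consensus summit. *Axin1* (ENSMUSG00000024182, chr17:26138688-26195811) had a single consensus summit, at chr17:26054631 in an intron of *Rab11fip3*, 84.1 kb upstream. Its enrichment was 6.19-fold in replicate 1 and 8.45-fold in replicate 2, and no summit was listed at the *Axin1* promoter.

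*Csnk1a1* encodes casein kinase 1α, the priming kinase of β-catenin, and *Gsk3a* and *Gsk3b* encode the kinases that phosphorylate it after priming. *Csnk1a1* (ENSMUSG00000024576, chr18:61555274-61590061) carried the most enriched promoter summit of the 10 genes. It lies at chr18:61554881, 393 bp upstream of a TSS, with 11.5-fold enrichment from 40 fragments in replicate 1 and 9.09-fold from 36 in replicate 2. A core, ATCAAAG, soft-masked as repeat sequence in the reference, is centred 3 bp from the consensus summit, whose 10.2-fold enrichment exceeded that of 91.9% of the 1984 promoters with a wild-type consensus summit. The summit lies outside the H3K27ac consensus peaks of both treatments. A further *Csnk1a1* summit, 19.8 kb past the 3′ end at chr18:61609879, was 11.7-fold enriched in replicate 1 and 5.33-fold in replicate 2 and lies inside an H3K27ac peak that was listed in all 4 H3K27ac libraries (9.03 to 10.7-fold).

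*Gsk3b* (ENSMUSG00000022812, chr16:38089001-38246084) had 3 consensus summits, all distal. The most enriched of the 24, chr16:38334610, is 88.5 kb past its 3′ end in an intron of *Maats1*, with 11.0-fold enrichment in replicate 1 and 10.04-fold in replicate 2. Its window is the one with 2 cores printed above. A further *Gsk3b* summit at chr16:38013156, 75.8 kb upstream, had 7.63 and 8.70-fold enrichment in the replicates and no core. At the *Gsk3b* promoter both replicates listed a summit, at chr16:38088484 (4.77-fold) and chr16:38088626 (2.91-fold), but the consensus list holds none there. *Gsk3a* (ENSMUSG00000057177, chr7:25228258-25237851, minus strand) had no promoter summit. Its 3 consensus summits lie 11.5 to 13.0 kb upstream in and beside *Erf*, which encodes an ETS repressor, at 3.28 to 4.25-fold, and hold no core. Of the RefSeq promoter windows (250 bases before to 50 after the start, GRCm38.p6), which matched 6 of 10 members, the one of *Gsk3a* holds TTCAAAG and the other 6 windows hold no core, against 8.65% of all such windows.

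*Btrc* (ENSMUSG00000025217, chr19:45363734-45530013) encodes the F-box protein that recognises phosphorylated β-catenin for the ubiquitin ligase. Its window is the longest of the 10 genes (366.3 kb). With 8 consensus summits in 7 peak regions it had the most, and for 1 of these summits *Btrc* has the nearest protein-coding TSS. They reach from 92.9 kb upstream, on the side of *Lbx1*, to 92.4 kb downstream, in introns of *Fbxw4*, and 1 lies in an intron of *Btrc* itself (chr19:45476397, 6.50-fold). The most enriched, chr19:45541854, is intergenic, 11.8 kb past the 3′ end, with 5.75-fold enrichment from 18 fragments in replicate 1 and 8.79-fold from 28 in replicate 2. At the *Btrc* promoter only replicate 1 listed a summit (3.50-fold, 8 fragments).

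*Dvl1*, *Dvl2* and *Dvl3* encode the Dishevelled proteins, which act upstream of the complex. *Dvl1* (ENSMUSG00000029071, chr4:155847402-155859303) had 1 summit in each wild-type replicate, at the promoters of *Ints11* and *Mrpl20* and not shared. *Dvl3* (ENSMUSG00000003233, chr16:20516982-20534010) had 1 summit in replicate 1, at *Eif2b5*, and 2 in replicate 2, 1 of them at its own promoter (3.41-fold, 10 fragments). *Dvl2* (ENSMUSG00000020888, chr11:70000595-70012301) had 2 consensus summits. The one at chr11:70068492 is 56.2 kb past its 3′ end, with 4.65 and 3.44-fold enrichment in the replicates, and has the core printed above. The other, at the promoter of *2810408A11Rik*, is the member summit nearest to the window limit, 99.7 kb from *Dvl2* (4.14-fold), whereas the nearest one beyond the limit is 100.3 kb from *Gsk3b* (8.90-fold).

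A β-catenin consensus summit at a TSS was thus listed for 2 of 10 members, *Apc* and *Csnk1a1* (9.04% of all protein-coding genes). Summits in both wild-type replicates were listed for 3 of 10, with *Gsk3b* (10.2% of all genes), and in either replicate for 6 of 10, with *Btrc*, *Dvl2* and *Dvl3* (24.0% of all genes). After C59 none was listed, with 0 of 10 in the consensus list (0.0775% of all genes) and 0 of 10 in both replicates (0.0820% of all genes). Both *Csnk1a1* promoter summits lay past the C59 limit (−log10 p of 5.72). *Apc* passed it in replicate 2 alone (7.16) and *Gsk3b* in replicate 1 alone (8.65). *Btrc*, *Dvl2* and *Dvl3* (4.40, 4.41 and 4.655) lay below it, so their absence after C59 shows no loss. The *Apc* consensus summit (8.75) lay below the least significant C59 consensus summit (8.92).

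Of all protein-coding genes, 9.04% had a wild-type β-catenin consensus summit at a TSS. Among other genes of the pathway, taken from lists of their role, such a summit was listed for 4 of 38 further genes of β-catenin turnover. These are *Axin2*, a negative-feedback scaffold of the complex (11.6-fold), *Ppp2r1b*, a phosphatase subunit (6.98-fold), *Tnks2*, a tankyrase that targets axins (6.81-fold), and *Nkd1*, a Dishevelled antagonist (6.14-fold). It was also listed for 5 of 16 nuclear cofactor genes (*Pygo1*, *Bcl9*, *Bcl9l*, *Tle4* and *Tle1*, 2.88 to 8.24-fold) and for 5 of 14 genes of cadherin adhesion (*Ctnna3*, *Cdh2*, *Cdh3*, *Cdh11* and *Afdn*, 3.38 to 8.34-fold). *Axin2* was the sole gene of these lists with a C59 consensus summit at a TSS. Its β-catenin fold enrichment was 10 and 12.3 with DMSO and 4.67 and 6.61 with C59, so that the groups do not overlap. How common such a separation in fold is over all promoters was not tested. H3K27ac fold over expected coverage at the *Axin2* promoter moved the other way, with a log2 difference (C59 minus DMSO) of 0.60 ± 0.10 (SE). That difference did not pass the test (limma, adjusted p = 0.32, unadjusted p = 0.00097). H3K27ac summits within 100 kb of *Axin2* were fewer with C59, 11 and 9 against 13 and 14 with DMSO. More summits in both wild-type lists were found for 12.1% of all protein-coding genes. Fragments over library background are not given here for *Axin2*.

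H3K27ac was listed at the promoters of all 10 genes in all 4 replicate lists. Summits in both replicates were present for 10 of 10 members in wild-type controls (52.3% of all genes) and 10 of 10 after C59 (51.3%), as were consensus summits (52.2% and 51.2% of all genes). The 10 loci held 145 and 146 summits in the wild-type lists, a mean of 145.5 ± 0.707 (SD, n = 2), and 157 and 142 after C59, a mean of 149.5 ± 10.6. The difference of 4 summits is smaller than the spread between the C59 replicates (exact permutation test, two-sided, p = 1.0). No member had counts that separated the treatments in either direction, against 12.1% of all genes with more summits in both wild-type lists and 4.84% with more in both C59 lists. The H3K27ac density was 53.1 summits per Mb in the wild-type consensus list, against 11.5 over the genome. The genome value is not limited to sequence around genes, as the loci are.

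The level at the promoter was taken as the highest H3K27ac fold enrichment less than 1 kb from a TSS. At *Ctnnb1* both wild-type libraries had a lower level (12.7 and 12.8) than the C59 libraries (13.0 and 12.9). The groups do not overlap, with a log2 difference (C59 minus DMSO) of 0.02 ± 0.10 (SE), and limma gave an adjusted p of 0.96. On fragments over library background the *Ctnnb1* difference was -0.04 ± 0.18. The genes most like *Ctnnb1* over the 8 replicate lists were sought by Euclidean distance of log2 promoter fold with both antibodies. Unlisted promoters were set to a fold of 1. The nearest were *Nit1* and *Pfdn2*, which share a promoter (distance 0.0606), and *Mapkapk2* (0.0621). None of them had a β-catenin promoter summit, which the distance itself favours, since *Ctnnb1* has none in any list.

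On the scale of fold over expected coverage, the scaffold genes had the highest promoter levels, whereas on fragments over library background *Csnk1a1* was highest in all 4 libraries (139.8 and 159.8 times background with DMSO, 184.4 and 152.3 with C59) and *Axin1* lay below *Csnk1a1*, *Apc*, *Ctnnb1* and *Gsk3b*. *Apc* had a fold of 17.3 and 18.9 with DMSO against 20.8 and 19.0 with C59, and *Axin1* had 19.6 and 18.6 against 17.8 and 17.7. The C59 values of *Apc* lie above and those of *Axin1* below both wild-type values, and with fold summed over all promoter summits the *Apc* difference turned to -0.14. In the wild-type consensus list *Axin1* exceeded 95.3% and *Apc* 90.8% of the 11453 promoters with a summit. The kinase gene *Csnk1a1* had 11.2 and 12.1 with DMSO against 12.1 and 11.5 with C59, *Gsk3b* had 8.82 and 7.24 against 8.27 and 8.06, and *Gsk3a* had 13.8 and 16.3 against 15.0 and 12.0. The treatments overlap at all 3. They also overlap at *Btrc*, with 12.9 and 8.75 against 9.89 and 10.2, and at *Dvl3*, with 13.1 and 14.9 against 13.1 and 13.8. *Dvl1* had 10.53 and 11.65 with DMSO, and its C59 values of 10.45 and 8.78 are both below these.

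*Dvl2* had the lowest promoter fold over expected coverage of the 10, 3.61 and 3.63 with DMSO against 4.93 and 4.72 with C59. In the wild-type consensus list it exceeded 2.24% of promoters. Its log2 difference of 0.41 ± 0.10 (SE) was the largest of the 10 and did not pass the test (limma, adjusted p = 0.36, unadjusted p = 0.0057). The *Dvl2* fold is a ratio whose parts moved apart. The fragments at the summit numbered 74 and 82 with DMSO and 80 and 70 with C59, which overlap, whereas the locally expected coverage was 19.8 and 21.8 with DMSO and lower with C59, at 15.4 and 14.0. Set against the background coverage of each library instead, the *Dvl2* promoter was 27.5 and 28.4 times background with DMSO and 25.2 and 23.5 times with C59, and the log2 difference turned to -0.20 ± 0.18 (limma, adjusted p = 0.60). On that scale *Dvl2* was not the lowest, since *Dvl1* (18.2 and 20.1 with DMSO, 15.8 and 12.1 with C59) lay below it in all 4 libraries and *Btrc* in 3 of 4.

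**Figure D4:**
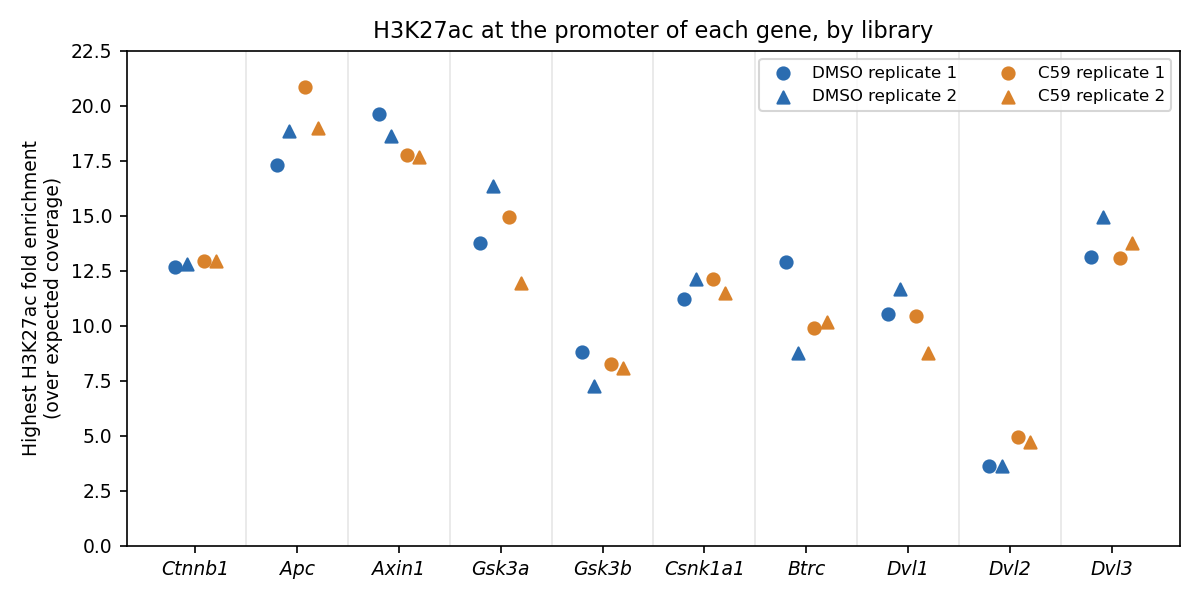
Highest H3K27ac fold enrichment over expected coverage at the promoter of each gene, with 1 point per library. The C59 points lie above both wild-type points at *Ctnnb1*, *Apc* and *Dvl2* and below both at *Axin1* and *Dvl1*, and overlap them at the other 5 genes. On fragments over background the differences of *Ctnnb1* and *Dvl2* are negative.

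No member promoter passed the test between treatments. Of 11104 promoters with an H3K27ac summit in all 4 replicate lists, limma called 0 higher (0%) and 0 lower (0%) at an adjusted p of 0.05, with 1029 (9.27%) at an unadjusted p under 0.05, among them *Dvl2* as 1 of 10 members. The log2 differences of the members ran from -0.21 at *Dvl1* to 0.41 at *Dvl2*, with a median of -0.02, and the median over all promoters was 0.00. Single libraries moved these values: *Dvl1* had -0.34 without C59 replicate 1 and -0.08 without C59 replicate 2, and *Gsk3a*, at -0.17 with all libraries, had -0.33 and -0.0037. Both C59 values lay above both wild-type values at 3 of 10 members (20.9% of all promoters tested) and below at 2 of 10 (19.7%). On the scale of fragments over library background, where the median of all promoters was -0.11, 40 promoters were called higher and 509 lower, and 0 of the 10 members, with adjusted p from 0.12 (*Dvl1*) to 0.99 (*Gsk3b*). On that scale the differences of *Axin1*, *Btrc* and *Dvl1* were -0.36 ± 0.18, -0.40 ± 0.19 and -0.47 ± 0.18. Among the pathway lists, 0 of 35 turnover, 0 of 15 nuclear and 0 of 10 adhesion promoters passed either way on the fold scale. Their median log2 differences were 0.02, 0.03 and 0.02. Single turnover genes ran from -0.33 at *Ppp2r5b* to 0.60 at *Axin2*.

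**Figure D5:**
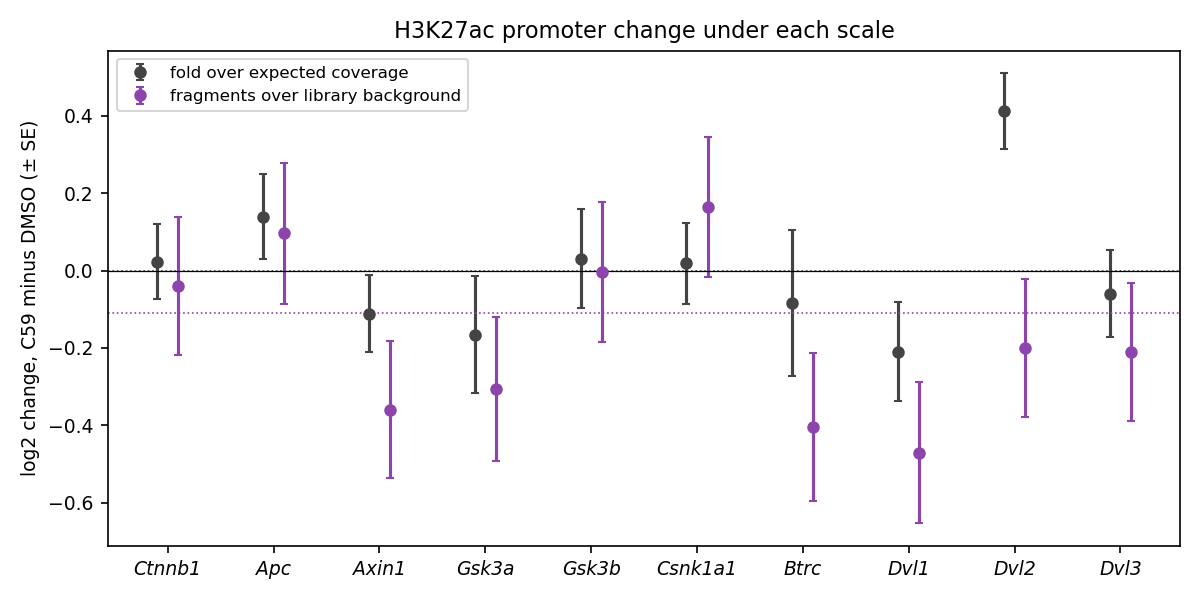
Difference in H3K27ac at each promoter, C59 minus wild-type control, on the log2 scale with the standard error of limma (2 libraries per group), for fold over expected coverage (grey) and fragments over library background (purple). Dotted lines are the medians of all promoters, 0.00 and -0.11, and the difference of *Dvl2* changes from 0.41 to -0.20 between the scales.

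Over all regions, promoters included, 76 of 83 wild-type H3K27ac consensus regions in the 10 loci overlapped a C59 consensus region (87.0% of all regions) and 77 of 84 C59 regions overlapped a wild-type one (89.3%). At *Gsk3a*, *Gsk3b*, *Dvl1* and *Dvl2* every wild-type region was shared (12, 4, 13 and 16). A wild-type consensus region without an overlapping peak in either C59 replicate was found 3 times (4.70% of all wild-type regions), at *Ctnnb1* (chr9:121037803-121038113), *Csnk1a1* (chr18:61639505-61639846) and *Btrc* (chr19:45541505-45541979). The converse was found 4 times (3.43% of all C59 regions), once at *Apc* and 3 times at *Csnk1a1*, with folds of 2.88 to 4.23. The *Btrc* region holds the most enriched β-catenin summit of that locus, chr19:45541854. Its H3K27ac enrichment was 4.61 and 3.60-fold in the wild-type replicates, and it was listed in neither C59 replicate. At *Apc* an internal promoter at chr18:34247363-34248219 had 4.67 and 4.89-fold enrichment in wild-type controls, 3.89-fold in C59 replicate 1 and no peak in C59 replicate 2, and was absent from the C59 consensus list.

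β-Catenin and H3K27ac coincided at 8 of the 24 consensus summits (33.3%, 95% Wilson interval 17.97 to 53.3%, against 22.1% of all summits), and at 12 of 24 when H3K27ac peaks were extended by 1 kb (34.1% of all). Inside C59 H3K27ac peaks lay 7 of the 24 (23.0% of all), the summit lost from the count being that of *Btrc* described above. The 8 summits are that of the *Apc* promoter, 2 *Erf* intron summits of *Gsk3a*, chr18:61609879 and chr18:61653531 of *Csnk1a1*, chr19:45270866 and chr19:45541854 of *Btrc*, and the *2810408A11Rik* promoter of *Dvl2*. At the 6 other H3K27ac regions among them, the fold of the 4 libraries ran from 2.58 to 20.8, and each was listed in both treatments. Intervals cover counting error over summits alone.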

How the data were processed

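ChIP-seq for β-catenin and H3K27ac was analysed in 8 libraries, grouped by the antibody and treatment in the labels (2 replicates per group); 4 input samples were not used here, and the authors called peaks without input. Per the authors' methods and the submitters' processing notes, reads were trimmed with cutadapt, aligned to mm10 with Bowtie2 2.4.5, and peaks with summits were called on fragments with MACS2 2.2.7.1 (genome size 1870000000); for the 4 consensus lists, duplicates were removed with Picard 2.27.4 and replicates were sampled to equal depth. The deposited fold enrichment is the ratio of the fragments at a summit to the coverage expected in the same library, with 1 added to each. The deposited −log10 p and −log10 q values are those of MACS2. The deposited score of column 5, the whole part of 10 times −log10 q, was not used, and the −log10 q of the consensus lists was recorded as a score of the authors' caller.

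The fragments at each summit and the expected coverage were solved from fold and −log10 p (Poisson). Total read counts are not in these lists, so depth was read as the expected coverage at background. Summits were assigned with GENCODE M21 in Python 3.11.15 (pandas 2.3.3, scipy 1.17.1, pysam 0.24.0). Summit counts of groups were compared by the two-sided exact permutation test. Log2 promoter fold was compared with limma 3.58.1 (R 4.3.3) over all 11104 promoters listed in all 4 replicates, with Benjamini-Hochberg adjustment and a threshold of 0.05, so that promoters missing from a list do not enter. No pseudocount was needed. In simulated data with 200 of these 11104 promoters changed, 66% were recovered at a log2 change of 1 and 91.5% at 2. Smaller changes, of the size seen at the members, were not simulated. The p-values measure the spread between pools. Values differ in precision with depth: an 8-fragment summit has a 95% Poisson interval of 3.45 to 15.8 fragments, and intervals cover counting error only.

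The 10 genes and the lists were chosen with earlier results of these data known. For each gene, the promoter summits and the most enriched wild-type consensus summit were named, and from each pathway list up to 5 genes with the highest wild-type promoter fold and every gene with a C59 promoter summit. *Tle5* of the nuclear list was not matched in the annotation. Alternatives covered the window, the significance threshold, the distance to the TSS, the lists used, the promoter measure, the replicate block and leaving out each library. The limit of the C59 lists, the fragments over library background and the summit in both replicates were alternatives chosen after seeing the data. The replicate numbers do not mark a shared litter or day in the labels.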

Additional observations from a re-analysis of the deposited data

How the results depend on the processing

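Both C59 lists held 0 β-catenin summits in the 10 loci, so a setting that only removed summits could not reverse the difference. The window of 200 kb could have added C59 summits, and their mean there was 0. The β-catenin difference of 43 summits kept its direction under every alternative run for it. It was smallest when the member had to be the nearest gene by TSS, with 11 and 10 wild-type summits against 0 in both C59 lists, and came to 16.0 summits at a −log10 q of at least 5, 19.5 in a window of 50 kb, 70.5 in one of 200 kb, and 42 to 44 with each replicate left out. The H3K27ac difference (DMSO minus C59) of -4 changed sign to 1.5 at a −log10 q of at least 5, 0.5 for distinct regions and 1.0 in the consensus lists. With each replicate left out it ran from -11.5 to 3.5, the positive value without C59 replicate 1. Members with a wild-type β-catenin summit at a TSS numbered 5 in the list of replicate 1 alone and 4 in that of replicate 2 alone, against 2 in the consensus. The count of H3K27ac promoters passing limma rose from 0 to 101 (25 higher and 76 lower, of 12299) when unlisted promoters were set to a fold of 1, and to 549 on fragments over library background. No member passed under any of these alternatives. Of 100 alternatives for member promoters, 89 kept the direction and 11 reversed. Reversals on fragments over background were -0.039 for *Ctnnb1*, -0.0041 for *Gsk3b* and -0.20 for *Dvl2*, and reversals with fold summed over summits were -0.20 for *Ctnnb1*, -0.14 for *Apc* and 0.037 for *Dvl3*. With each replicate left out, the log2 difference ran from -0.11 to 0.17 for *Gsk3b*, -0.037 to 0.073 for *Csnk1a1*, -0.36 to 0.20 for *Btrc* and -0.15 to 0.034 for *Dvl3*, and without a change of sign from -0.34 to -0.08 for *Dvl1*, -0.33 to -0.0037 for *Gsk3a*, 0.07 to 0.21 for *Apc* and -0.15 to -0.07 for *Axin1*. The cause was not tested. The share of windows with a core ran from 16.7% (ATCAAAG alone) to 33.3% (400 bp).

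With the replicate number as a block (replicate block), the β-catenin difference was 43.0 summits (42 and 44 within pairs, exact permutation p = 0.50) and the H3K27ac difference -4.0 (-12 and 4), and limma called 0 promoters (938 at an unadjusted p under 0.05). The deviations of same-numbered H3K27ac libraries correlated at 0.019 over 11104 promoters. That value cannot show whether these libraries share a litter or day, and the β-catenin libraries were not compared in this way. The block changed no call.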
